A study of Mus musculus with 6 samples.

Results

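NF-kB is a family of transcription factors that drives much of the response of macrophages to LPS, a component of bacterial cell walls. The transcripts described here are the 10 NF-kB and I-kappa-B genes Nfkb1, Nfkb2, Rela, Relb, Rel, Nfkbia, Nfkbib, Nfkbie, Nfkbiz and Bcl3, chosen by name from a table of 23337 gene symbols. All 10 were in the table and all 10 passed the filter on low counts. They were measured by RNA sequencing in mouse bone marrow-derived macrophages, cells grown from bone marrow with M-CSF for 7 days. The groups were wild type (WT), a knockout of Ch25h (Ch25hKO), the enzyme gene of the oxysterol 25-hydroxycholesterol, and a double knockout (LXRdKO) that lacks the liver X receptors LXRα and LXRβ, nuclear receptors for oxysterols. Every group was of strain C57BL/6, received LPS at 100 ng/ml for 8 h and had 2 libraries, so all values are levels after LPS and none is a change from unstimulated cells. The labels name neither the age or sex of the mice nor whether replicate libraries derive from different mice or cultures, so p-values here reflect spread among these libraries alone, and that spread may be technical.

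The Rel subunits RelA, RelB, c-Rel and the processed products of Nfkb1 and Nfkb2 pair into dimers that bind DNA. In resting cells the cytoplasmic inhibitors I-kappa-Bα, β and ε, encoded by Nfkbia, Nfkbib and Nfkbie, hold dimers in the cytoplasm until IKK kinases mark the inhibitors for destruction. The nuclear family members I-kappa-Bζ (Nfkbiz) and BCL3 instead bind dimers in the nucleus and tune which genes are read. Many of these genes are themselves NF-kB targets, which gives the pathway its feedback loops.

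Motif matches before the start sites are shown first because NF-kB acts on several of these genes through such sites. Promoter sequences from RefSeq (GRCm38.p6) were matched by symbol for 7 of the 10 members, in 9 windows because Nfkb2 had 3 start sites. Nfkb1, Relb and Nfkbiz were not matched. Each window ran from 250 to 11 bases before the start site, 240 bases in all. The kappaB consensus was GGGRNWYYCC, searched on both strands. There R stands for A or G, W for A or T, Y for C or T and N for any base. It was found before Nfkb2, Nfkbia, Nfkbie and Rel, in 6 of the 9 member windows and in 3.75% of all 32851 windows in the table. GGACTTTCC is a shorter form of a classical NF-kB site that can overlap the consensus. It was found before Nfkb2 and Nfkbia, in 2 of the 9 member windows and in 0.265% of all windows. The windows of the 3 members with a match and a single start site are printed 5′ to 3′ on the strand of the gene, with capitals marking the matched bases.
Rel, chr11:23770980-23771219, minus strand: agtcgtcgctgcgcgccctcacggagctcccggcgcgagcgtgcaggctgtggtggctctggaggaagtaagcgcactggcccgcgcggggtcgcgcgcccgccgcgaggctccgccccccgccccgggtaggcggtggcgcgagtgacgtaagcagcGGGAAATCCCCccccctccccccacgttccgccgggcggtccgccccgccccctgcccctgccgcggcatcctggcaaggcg
Nfkbia, chr12:55492658-55492897, minus strand: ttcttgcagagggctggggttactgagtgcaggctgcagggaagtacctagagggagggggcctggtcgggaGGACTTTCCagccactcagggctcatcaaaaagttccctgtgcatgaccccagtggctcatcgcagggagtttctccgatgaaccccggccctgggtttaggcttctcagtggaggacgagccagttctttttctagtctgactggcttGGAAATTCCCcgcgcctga
Nfkbie, chr17:45555450-45555689, plus strand: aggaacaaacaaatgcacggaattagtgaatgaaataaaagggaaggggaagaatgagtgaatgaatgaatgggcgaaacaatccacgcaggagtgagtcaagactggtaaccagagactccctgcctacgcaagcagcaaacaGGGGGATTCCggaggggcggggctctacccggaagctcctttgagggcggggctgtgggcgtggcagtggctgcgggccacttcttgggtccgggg
The Rel window held GGGAAATCCC at 92 bases before the start, a match when read on either strand. Nfkbia held GGACTTTCC at 178 bases and GGAAATTCCC at 29 bases before its start, and Nfkbie held GGGGGATTCC at 106 bases. The 3 windows of Nfkb2 held GGGAATTCCC, GGAATGTCCC and GGGACTTTCC, 1 in each besides overlapping matches, and the last overlaps its GGACTTTCC match. Rela, Nfkbib and Bcl3 had no match in these windows. A match is a description of the letters, and binding was not measured.

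The libraries held 41650513 to 45872964 counts, and each member had 1336 to 12330 counts per library. The targeted genes were low where the labels place the knockout. Ch25h had 42 and 57 counts in Ch25hKO and at least 2509 in each other library, Nr1h3 (LXRα) had 42 and 41 in LXRdKO and at least 710 elsewhere, and Nr1h2 (LXRβ) had 35 and 35 in LXRdKO and at least 1292 elsewhere. The sources used here do not say which exons were deleted. Macrophage markers summed to 17073 to 20620 CPM (read counts relative to library size, scaled by TMM) over 9 of 10 listed markers, and each of the 9 was detected in every group. Markers of dendritic cells summed to 31.2 and 31.7 CPM in WT, 16.4 to 17.5 in Ch25hKO and 23.8 to 25.9 in LXRdKO, and those of stromal cells to 12.3 to 12.8, 28.5 to 31.3 and 14.5 to 16.3 CPM. Neutrophil markers summed to 52.9 to 54.0, 69.2 to 72.1 and 39.3 to 39.6 CPM, B cell markers to at most 1.08 and T and NK cell markers to at most 2.99 CPM in any library, and no listed marker was at 0 in all 6 libraries. In Ch25hKO, 3 of 9 tested dendritic cell markers fell and 6 of 6 tested stromal markers rose, where 19.5% of all tested genes fell and 19.8% rose. In LXRdKO, 7 of 9 macrophage markers rose and 4 of 6 tested neutrophil markers fell, counts that came to 4 and 2 without either LXRdKO library, where 16.4% of all genes rose and 15.5% fell. The neutrophil list was mixed there, since Mmp8 rose by 0.56 ± 0.07 (edgeR adjusted p = 1.06e-05), and 2 of 9 dendritic cell markers fell (Ccr7 and Dpp4). Of the neutrophil markers that fell, S100a8 stood at 35.5 CPM in WT and 16.5 in LXRdKO. The others, S100a9, Ngp and Mpo, were low already in WT, at 2.675, 0.820 and 0.250 CPM. Most of the summed neutrophil CPM came from S100a8 and Mmp8 (13.4 CPM in WT). The part of these cells in the results below was not tested, and in bulk RNA fewer cells of a type and less RNA per cell cannot be told apart.

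The share of all counts taken by the 10 members together was 0.131% and 0.132% in the WT libraries. It was 0.141% and 0.140% for Ch25hKO, against 0.118% and 0.119% for LXRdKO. Across all comparisons, a gene was called changed at an adjusted p under 0.05 by edgeR's quasi-likelihood test over 12923 genes, and each difference is given on the log2 scale ± its standard error (n = 2 per group). The 2 knockouts share their WT libraries as reference. In Ch25hKO, 4 of the 10 members rose and 1 fell, where 19.8% of all tested genes rose and 19.5% fell. In LXRdKO, 2 rose and 2 fell, where 16.4% of all genes rose and 15.5% fell. With both directions joined, 5 and 4 of the 10 members were called, where 39.3% and 31.8% of all genes were, so the counts themselves are near the background. The CPM of the groups did not overlap for 6 members in Ch25hKO and 8 in LXRdKO, as for 68.3% and 63.6% of all genes. The median log2 difference over the 10 members was 0.04 in Ch25hKO and 0.03 in LXRdKO, with 0.0064 and 0.0026 over all tested genes.

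**Figure D1:**
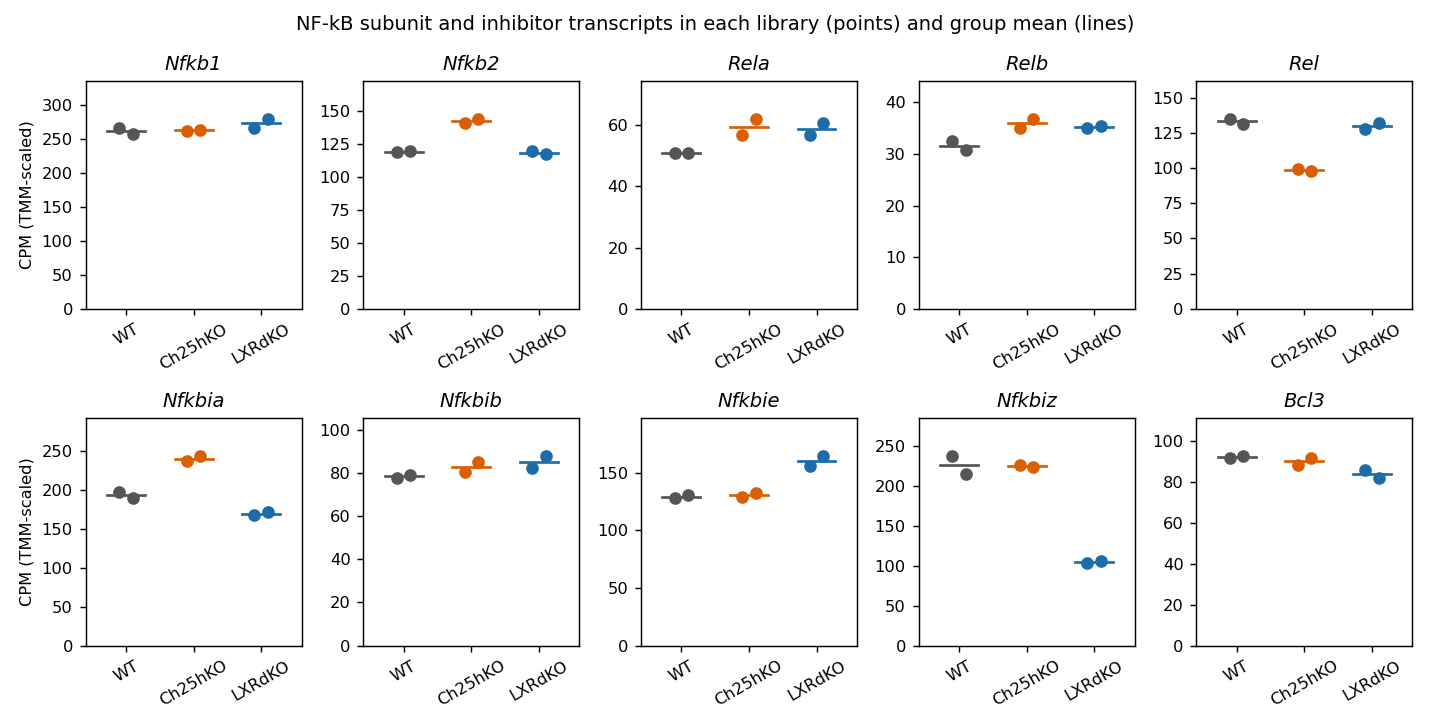
Each panel plots 1 member's level in CPM (counts relative to library size, scaled by TMM, axis from 0) in the 6 libraries, with points for libraries and lines for group means of n = 2. Nfkbiz stood at 104 and 106 CPM in LXRdKO and above 215 in the other 4 libraries, and Rel was at 99.0 and 98.0 CPM in Ch25hKO and above 127 elsewhere.

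Among the Rel subunits, the gene of c-Rel was the member that fell without Ch25h. Rel (ENSMUSG00000020275.9, GRCm38 chromosome 11, 23736847 to 23770970, minus strand, 10 exons) stood at 135 and 131 CPM in WT, 99.0 and 98.0 in Ch25hKO, against 127 and 132 in LXRdKO. Both Ch25hKO libraries lay below all other libraries, while WT and LXRdKO overlapped. Rel fell by 0.43 ± 0.05 in Ch25hKO (edgeR adjusted p = 2.56e-06), which left 74.0% of the WT level. In LXRdKO the difference was -0.04 ± 0.05 (edgeR adjusted p = 0.633), and the direct test of LXRdKO against Ch25hKO gave 0.40 ± 0.05 (edgeR adjusted p = 5.58e-06). c-Rel is known in macrophages and dendritic cells for its part in the transcription of interleukin-12 subunit genes.

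Nfkb2 rose where Rel fell. Nfkb2, which encodes p100, the precursor of p52 and itself an inhibitor of RelB dimers (ENSMUSG00000025225.15, chromosome 19, 46304320 to 46312385, plus strand, 22 exons), stood at 118 and 120 CPM in WT, 141 and 144 in Ch25hKO, against 120 and 117 in LXRdKO. The Ch25hKO libraries lay above the other 4. The rise in Ch25hKO was 0.26 ± 0.05 (edgeR adjusted p = 0.000490), and LXRdKO lay below Ch25hKO by -0.26 ± 0.05 (edgeR adjusted p = 0.000331). Against WT the difference in LXRdKO was -0.01 ± 0.05 (edgeR adjusted p = 0.921). The gene overlaps Psd on the opposite strand, and the sources used here do not give the strand setting of the counting. Psd had 599 to 752 counts per library and rose in both knockouts (0.28 ± 0.08 in each, edgeR adjusted p = 0.00732 in Ch25hKO and 0.00811 in LXRdKO). The Ch25hKO call for Psd did not hold when Ch25hKO replicate 2 was left out (0.26, edgeR adjusted p = 0.0650), nor the LXRdKO call when LXRdKO replicate 1 was (0.23, edgeR adjusted p = 0.0980). Its part in the reads of Nfkb2 was not tested. The midpoint of Nfkb2 lies 11.8 Mb from that of Ch25h on the same chromosome, which also holds Rela, 28.8 Mb from Ch25h.

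Rela, the gene of the main activating subunit RelA (ENSMUSG00000024927.8, chromosome 19, 5637483 to 5648130, plus strand, 11 exons), was higher in both knockouts. It stood at 51.0 and 50.7 CPM in WT, 56.6 and 62.0 in Ch25hKO, against 56.6 and 60.6 in LXRdKO. The WT libraries lay below the other 4, which overlapped each other. The rise was 0.22 ± 0.06 in Ch25hKO (edgeR adjusted p = 0.00624) and 0.21 ± 0.06 in LXRdKO (edgeR adjusted p = 0.0132). Each call was lost when 1 library was left out: without Ch25hKO replicate 2 the first was 0.16 (edgeR adjusted p = 0.131), and without LXRdKO replicate 2 the second was 0.15 (edgeR adjusted p = 0.175).

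Relb, which encodes the partner of p52 in the noncanonical pathway (ENSMUSG00000002983.17, chromosome 7, 19606217 to 19629438, minus strand, 12 exons), stood at 32.5 and 30.8 CPM in WT, 35.1 and 36.8 in Ch25hKO, against 35.1 and 35.5 in LXRdKO. As with Rela, the WT libraries were the lowest and the knockouts overlapped. Relb rose by 0.18 ± 0.06 in Ch25hKO (edgeR adjusted p = 0.0211) and did not pass in LXRdKO, at 0.16 ± 0.06 (edgeR adjusted p = 0.0509). The Ch25hKO call was lost with DESeq2 (adjusted p = 0.113) and without WT replicate 2 (0.13, edgeR adjusted p = 0.135), Ch25hKO replicate 1 (0.21, edgeR adjusted p = 0.0665) or Ch25hKO replicate 2 (0.15, edgeR adjusted p = 0.176), and LXRdKO passed without WT replicate 1 (0.20, edgeR adjusted p = 0.0209). Relb is abundant in dendritic cells, and the summed markers of these cells were lower in both knockouts than in WT. In LXRdKO the lower sum came mostly from Ccr7 (9.83 CPM in WT and 4.33 in LXRdKO), while Xcr1 stood at 13.6 and 13.8 CPM and Clec9a at 3.17 and 3.62 CPM. The part of dendritic cells in the values of Relb was not tested. The 2 knockouts differed by -0.02 ± 0.06 for Relb (edgeR adjusted p = 0.781) and by -0.02 ± 0.06 for Rela (edgeR adjusted p = 0.854).

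Nfkb1, which encodes p105 and its product p50 (ENSMUSG00000028163.17, chromosome 3, 135584655 to 135691547, minus strand, 25 exons), did not pass the test in any comparison. It stood at 265 and 257 CPM in WT, 262 and 263 in Ch25hKO, against 266 and 279 in LXRdKO. The differences from WT were 0.01 ± 0.05 in Ch25hKO (edgeR adjusted p = 0.914) and 0.06 ± 0.05 in LXRdKO (edgeR adjusted p = 0.387).

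Among the cytoplasmic inhibitors, Nfkbia and Nfkbie separated the knockouts from each other. Nfkbib did not, at 0.04 ± 0.05 for LXRdKO against Ch25hKO (edgeR adjusted p = 0.581). Nfkbia, the fast feedback inhibitor I-kappa-Bα (ENSMUSG00000021025.8, chromosome 12, 55489410 to 55492647, minus strand, 6 exons), stood at 198 and 189 CPM in WT, 237 and 244 in Ch25hKO, against 167 and 172 in LXRdKO. The 3 groups did not overlap: Ch25hKO was highest and LXRdKO lowest. Nfkbia rose by 0.31 ± 0.05 in Ch25hKO (edgeR adjusted p = 9.89e-05) and fell by 0.19 ± 0.05 in LXRdKO (edgeR adjusted p = 0.00896). The fall was not called without LXRdKO replicate 1 (-0.17, edgeR adjusted p = 0.108) or without LXRdKO replicate 2 (-0.21, edgeR adjusted p = 0.0514). The direct difference between LXRdKO and Ch25hKO was -0.50 ± 0.05 (edgeR adjusted p = 3.97e-07) and was called in each of the 14 alternatives run for it.

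Nfkbie, the gene of the slower inhibitor I-kappa-Bε (ENSMUSG00000023947.8, chromosome 17, 45555703 to 45563169, plus strand, 6 exons), rose without the LXRs. It stood at 128 and 131 CPM in WT, 129 and 132 in Ch25hKO, against 156 and 165 in LXRdKO. WT and Ch25hKO overlapped, and both LXRdKO libraries lay above them. The rise in LXRdKO was 0.31 ± 0.05 (edgeR adjusted p = 0.000154), against 0.01 ± 0.05 in Ch25hKO (edgeR adjusted p = 0.853), and LXRdKO was above Ch25hKO by 0.30 ± 0.05 (edgeR adjusted p = 0.000161). Nfkbia and Nfkbie, both inhibitors of the same kind, thus moved in opposite directions in LXRdKO. The fall of Nfkbia kept its direction but lost its call when LXRdKO replicate 1 or LXRdKO replicate 2 was left out.

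Nfkbib, which encodes I-kappa-Bβ (ENSMUSG00000030595.15, chromosome 7, 28758251 to 28767512, minus strand, 7 exons), stood at 77.9 and 79.3 CPM in WT, 80.4 and 85.1 in Ch25hKO, against 82.5 and 88.0 in LXRdKO. The WT libraries were the lowest, but no difference passed, with 0.07 ± 0.05 in Ch25hKO (edgeR adjusted p = 0.304) and 0.12 ± 0.05 in LXRdKO (edgeR adjusted p = 0.114). Nfkbib overlaps Sirt2 on the opposite strand, which had 3520 to 5412 counts and fell by 0.52 ± 0.05 in LXRdKO (edgeR adjusted p = 8.94e-07). The part of these reads in the value of Nfkbib was not tested.

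The nuclear member Nfkbiz had the largest change of the family. I-kappa-Bζ is induced by LPS and is known to be needed for a second wave of LPS-induced genes, among them Il6, Il12b and Lcn2. Nfkbiz (ENSMUSG00000035356.17, chromosome 16, 55811375 to 55838899, minus strand, 14 exons) stood at 238 and 216 CPM in WT, 226 and 224 in Ch25hKO, against 104 and 106 in LXRdKO. Both LXRdKO libraries were far below the other 4, and the Ch25hKO libraries lay between the WT libraries. In LXRdKO it fell 2.17-fold, by 1.12 ± 0.06 on the log2 scale (edgeR adjusted p = 1.09e-10), to 46.1% of the WT level, and its change ranked 461 of 12923 genes by size. The difference in Ch25hKO was -0.01 ± 0.05 (edgeR adjusted p = 0.870), and that between LXRdKO and Ch25hKO was -1.10 ± 0.06 (edgeR adjusted p = 4.93e-11). The next largest change of a member against WT, that of Rel in Ch25hKO, ranked 3248 by size among all genes of its comparison.

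Bcl3, whose product binds p50 and p52 dimers in the nucleus (ENSMUSG00000053175.17, chromosome 7, 19808462 to 19822770, minus strand, 9 exons), did not pass in either knockout. It stood at 91.8 and 92.9 CPM in WT, 88.4 and 91.8 in Ch25hKO, against 86.0 and 82.3 in LXRdKO. The LXRdKO libraries were the lowest, with a difference from WT of -0.13 ± 0.05 (edgeR adjusted p = 0.0578) that passed without WT replicate 1 (-0.14, edgeR adjusted p = 0.0433) or WT replicate 2 (-0.14, edgeR adjusted p = 0.0494). In Ch25hKO it was -0.04 ± 0.05 (edgeR adjusted p = 0.623). Bcl3 and Relb lie 0.198 Mb apart on chromosome 7, which also holds Nfkbib and Nr1h2, at 15.8 to 24.9 Mb from Nr1h2.

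**Figure D2:**
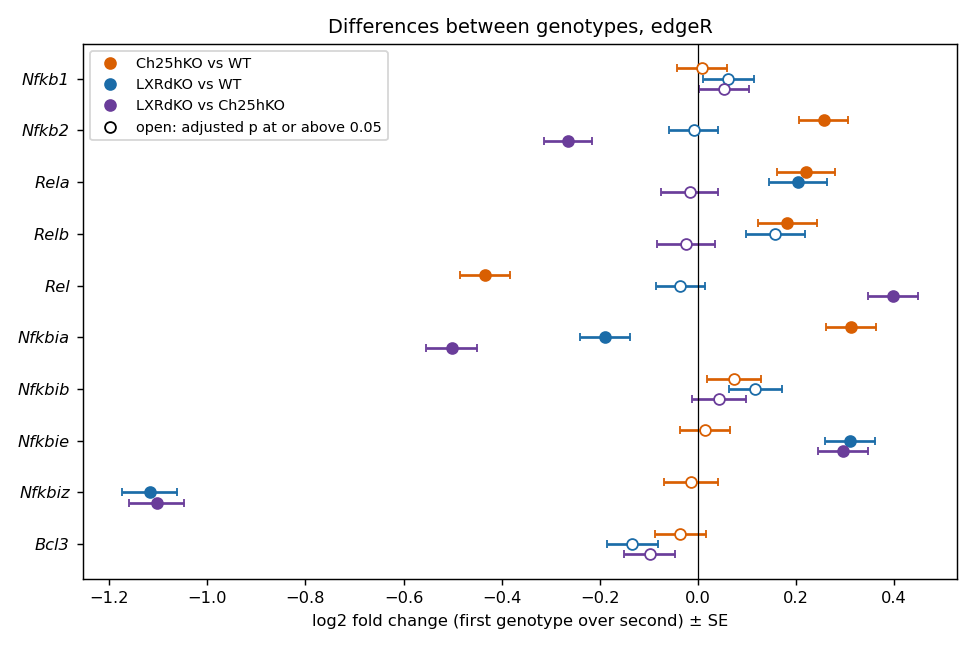
Points give the log2 fold change of each member and bars its standard error, with the first named genotype over the second, and open points did not reach an adjusted p under 0.05. Nfkbiz stands apart at -1.12 in LXRdKO, and Nfkbia lies on opposite sides of 0 in the 2 knockouts (0.31 and -0.19).

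The direct comparison of the knockouts tests whether their effects differ. Of the 10 members, 2 were higher in LXRdKO than in Ch25hKO (Rel and Nfkbie) and 3 lower (Nfkb2, Nfkbia and Nfkbiz), where 19.3% of all genes were higher and 18.6% lower. The CPM of the 2 knockouts did not overlap for 7 members, as for 71.2% of all genes. The same 5 were called in each alternative run for this comparison. Nfkb1, Rela, Relb, Nfkbib and Bcl3 did not pass, with log2 differences from -0.10 for Bcl3 to 0.05 for Nfkb1 and standard errors of 0.05 to 0.06.

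Levels of different members can be compared only per length. On the scale of CPM per kb of the longest protein-coding transcript in GENCODE vM21, Nfkbia was the most abundant in WT at 123 ± 3.71 (SD, n = 2), followed by Nfkb1 at 63.4 ± 1.51, Nfkbiz at 55.2 ± 3.88, Nfkbie at 53.1 ± 0.916 and Bcl3 at 49.9 ± 0.442. Nfkbiz and Nfkbie differed by less than their spread. Nfkbib (38.1 ± 0.470), Nfkb2 (30.9 ± 0.211), Rela (18.7 ± 0.0735), Rel (17.8 ± 0.329) and Relb (14.3 ± 0.572) followed. In LXRdKO, Nfkbiz stood seventh at 25.4 ± 0.395, below Nfkb2 at 30.8 ± 0.464. In Ch25hKO, Rel was the least abundant member at 13.2 ± 0.102, below Relb at 16.3 ± 0.547, but this order turns with the length. There Relb came to 10.98 by the longest transcript of any type and 9.25 over the union of exons, below Rel at 13.2 by each length. The place of Nfkb1 depends on the length used: over the union of its annotated exons it stood at 21.6 in WT. Nfkbie came below Bcl3 with the longest transcript of any type (43.0 against 49.9). Over the union of exons Rela (16.6) came below Rel (17.8) in WT.

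**Figure D3:**
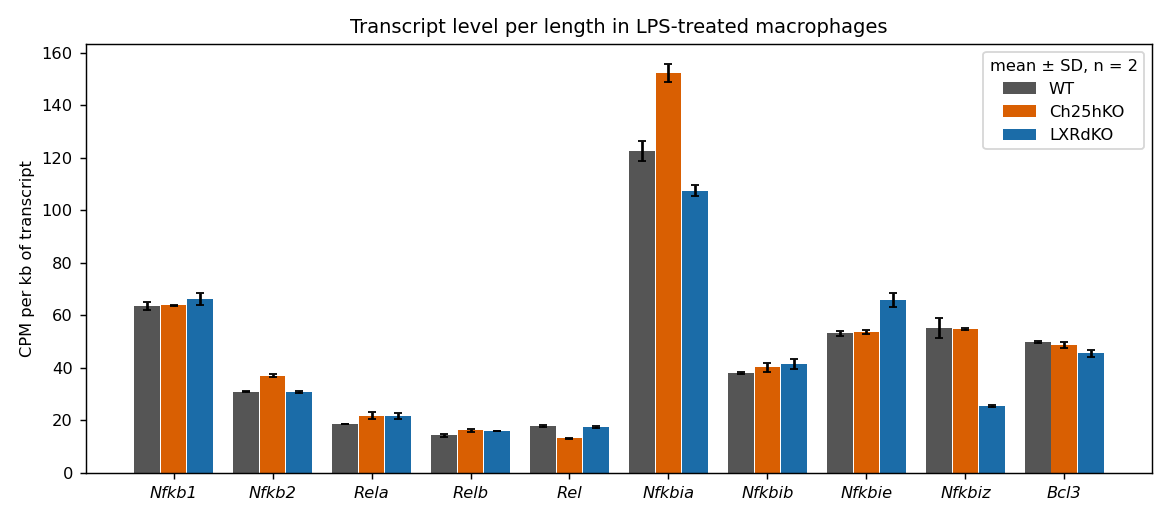
Bars give the mean level of each member in CPM per kb of its longest protein-coding transcript, with the SD over n = 2 libraries, for the 3 genotypes. Nfkbia is the highest bar in each genotype, and Nfkbiz drops from 55.2 in WT to 25.4 in LXRdKO.

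Sums and ratios on this per-length scale describe the balance of roles in each library. They rest on the longest protein-coding transcript and were not computed with the other lengths. Over the union of exons, WT had Nfkb1 at 21.6 instead of 63.4 and Rela at 16.6, below Rel at 17.8. The 5 subunit genes made up 31.2% and 31.3% of the family's summed level in WT, 30.3% and 30.3% in Ch25hKO, against 34.7% and 34.8% in LXRdKO. The 3 cytoplasmic inhibitors took 45.9% and 46.3% in WT, 48.9% and 49.2% in Ch25hKO, against 48.7% and 49.4% in LXRdKO. Their summed level over that of the subunits was 1.47 and 1.48 in WT, 1.61 and 1.63 in Ch25hKO, against 1.41 and 1.42 in LXRdKO. The family's summed level was 470 and 459 CPM per kb in WT, 495 and 508 in Ch25hKO, against 431 and 444 in LXRdKO. Shares change with that total, and the ratio of inhibitors to subunits does not. The nuclear genes Nfkbiz and Bcl3 took 22.9% and 22.4% in WT, 20.8% and 20.5% in Ch25hKO, against 16.6% and 15.8% in LXRdKO. The nuclear share was therefore lowest in both LXRdKO libraries and did not overlap the others. It leaves out Nfkbid, another gene of this kind, which was listed with the regulators. Nfkbid fell by 0.27 ± 0.10 in LXRdKO (edgeR adjusted p = 0.0471). That call was lost in several alternatives, among them DESeq2 (-0.28, DESeq2 adjusted p = 0.120). Within subunits, the level of Rel over that of Rela was 0.961 and 0.942 in WT, 0.636 and 0.575 in Ch25hKO, against 0.819 and 0.793 in LXRdKO. Within inhibitors, the level of Nfkbia over that of Nfkbie was 2.39 and 2.23 in WT, 2.83 and 2.85 in Ch25hKO, against 1.66 and 1.61 in LXRdKO. Within nuclear genes, the level of Nfkbiz over that of Bcl3 was 1.17 and 1.04 in WT, 1.15 and 1.10 in Ch25hKO, against 0.541 and 0.579 in LXRdKO. WT and Ch25hKO overlapped in this last ratio, and the 3 genotypes did not overlap in the other ratios. Lack of overlap was common among single genes too, at 68.3% for Ch25hKO against WT. The ratios were not tested.

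Genes that act on the family were read from a list of 44 kinases, adaptors, ubiquitin enzymes and other regulators, all tested. In Ch25hKO, 8 rose and 8 fell, 36.4% of the list against 39.3% of all genes, with a median log2 difference of -0.02. Irak3, the gene of IRAK-M, an inhibitor of Toll-like receptor signalling, rose by 0.65 ± 0.05 (edgeR adjusted p = 1.99e-08), and Birc3, which encodes the ubiquitin ligase cIAP2, rose by 0.30 ± 0.05. Both genes of the β-TrCP proteins, which recognise phosphorylated I-kappa-B for destruction, fell: Btrc was at -0.54 ± 0.08 and Fbxw11 at -0.24 ± 0.06. Otud7b, a deubiquitinase gene, and Ticam1, which encodes the adaptor TRIF, were at -0.50 ± 0.07 and -0.28 ± 0.05. Leaving out WT replicate 2 gave 4 rising and 13 falling genes, and leaving out Ch25hKO replicate 1 or Ch25hKO replicate 2 gave 3 rising genes.

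In LXRdKO, 12 of the 44 rose and 8 fell, 45.5% of the list against 31.8% of all genes, with a median of -0.0012. Tnfaip3, a ubiquitin-editing enzyme and feedback inhibitor of NF-kB, fell by 0.51 ± 0.07 (edgeR adjusted p = 1.17e-05). Zc3h12a, which encodes the RNase Regnase-1, a brake on inflammatory mRNAs, fell by 0.32 ± 0.07, and Traf3, a negative regulator of the noncanonical pathway, fell by 0.31 ± 0.06. Otud7b fell by 0.51 ± 0.07 and Skp1a, a subunit of the ubiquitin ligase that holds β-TrCP, by 0.28 ± 0.06, while Irak3 rose by 0.34 ± 0.05. These were the 6 called genes with the lowest p, so most of the 12 rising genes are not among them. Map3k14 (0.42 ± 0.09) and Myd88 (0.29 ± 0.06) were 2 of those. Rising genes came to 6 without LXRdKO replicate 1 or LXRdKO replicate 2.

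Between the knockouts, 10 of these 44 genes were higher in LXRdKO and 9 lower, 43.2% against 37.9% of all genes. Tnfaip3 (-0.65 ± 0.07), Zc3h12a (-0.37 ± 0.07) and Irak3 (-0.31 ± 0.05) were lower in LXRdKO than in Ch25hKO. Map3k14, the gene of NIK, the kinase that starts the noncanonical pathway, was higher by 0.51 ± 0.09, and the receptor adaptor genes Myd88 and Ticam1 by 0.32 ± 0.06 and 0.29 ± 0.05. Leaving out Ch25hKO replicate 2 gave 6 higher and 5 lower genes, LXRdKO replicate 2 gave 4 and 5, and Ch25hKO replicate 1 gave 5 lower.

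The last list held known inducible NF-kB targets, the genes on which the family acts. Of 35 listed targets 34 were tested, and in LXRdKO 6 rose and 18 fell, 70.6% of those tested against 31.8% of all genes, with a median of -0.16. Cxcl1, a neutrophil chemoattractant, fell by 2.85 ± 0.07, Il12b by 1.88 ± 0.09, the growth factor gene Csf3 by 1.85 ± 0.11 and the cyclooxygenase gene Ptgs2 by 1.10 ± 0.06. Nos2, the inducible nitric oxide synthase, fell by 0.98 ± 0.06 and the monocyte attractant Ccl2 by 1.03 ± 0.07. Il6 and Lcn2, named here after their values were seen, fell by 0.75 ± 0.06 and 0.46 ± 0.06. In Ch25hKO, where Nfkbiz was at -0.01 ± 0.05, these genes were called too: Il6 was at -0.25 ± 0.06, Il12b at -0.56 ± 0.08 and Lcn2 at 0.33 ± 0.06. The part of Nfkbiz in the levels of these genes was not tested. Rising targets came to 3 without LXRdKO replicate 2.

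In Ch25hKO, 13 of the 34 targets rose and 14 fell, 79.4% of those tested against 39.3% of all genes, with a median of -0.02. Tnfaip2, Il1b and Tnf rose by 0.66 ± 0.05, 0.59 ± 0.06 and 0.48 ± 0.05, while Ccl2, the plasminogen activator gene Plau and the activation marker Cd83 fell by 1.21 ± 0.07, 1.19 ± 0.11 and 0.78 ± 0.07. Between the knockouts, 7 targets were higher and 18 lower in LXRdKO, 73.5% of those tested against 37.9% of all genes. Cxcl1 (-2.58 ± 0.07), Csf3 (-2.01 ± 0.11), Ptgs2 (-1.11 ± 0.06), the cytokine gene Il1a (-1.05 ± 0.06), the early response gene Ier3 (-1.04 ± 0.05) and the chemokine gene Cxcl2 (-1.03 ± 0.07) were lower there. Higher targets came to 3 without Ch25hKO replicate 1. The targets were listed as inducible genes with earlier results of these libraries known, so their counts are a description.

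**Figure D4:**
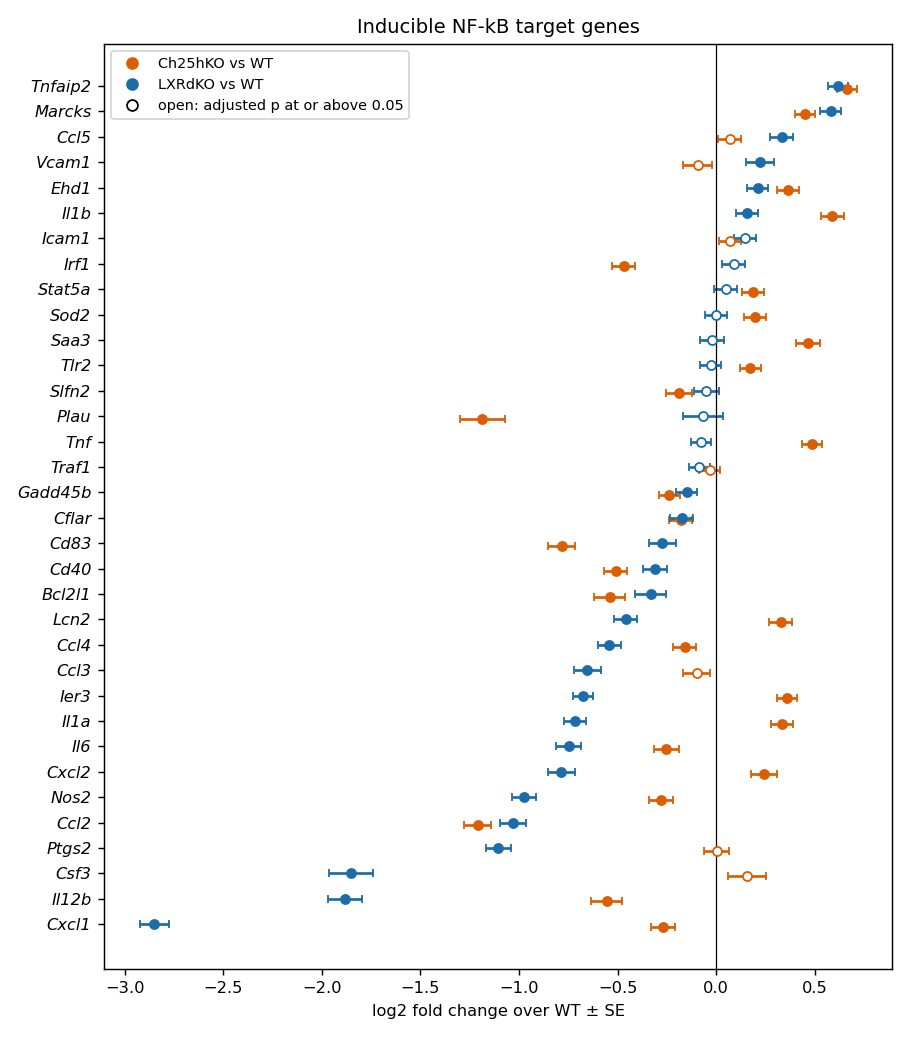
Points give the log2 fold change of each of 34 NF-kB target genes in Ch25hKO and LXRdKO over the same WT libraries, with standard errors, ordered by the LXRdKO value, and open points did not reach an adjusted p under 0.05. Cxcl1, Il12b and Csf3 lie farthest to the left in LXRdKO, at -2.85, -1.88 and -1.85.

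The genes whose pattern was most like that of Nfkbiz were found by the root mean square distance of centred log2 CPM over the 6 libraries, among 7693 named genes with a mean of at least 5 CPM. The nearest was Ptgs2, at a distance of 0.06, with a log2 difference of 0.0026 in Ch25hKO and -1.10 in LXRdKO. Next came Hnmt, which encodes a histamine methyltransferase (distance 0.09, -1.07 in LXRdKO), and Lyrm5 (0.09, -1.31). Eif3e, a subunit gene of a translation initiation factor (0.09, -1.06), and Kif3a, a kinesin motor gene (0.12, -0.92), followed.

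**Figure D5:**
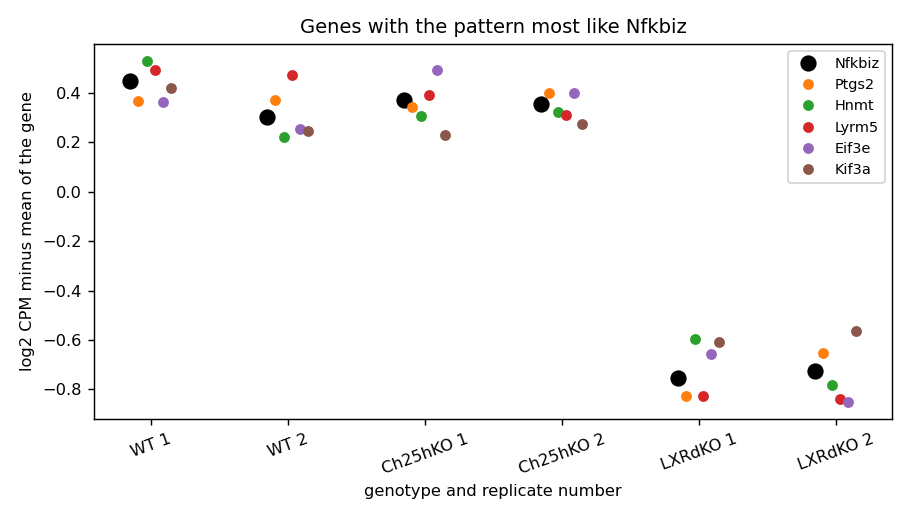
Points give log2 CPM minus the gene's own mean in each of the 6 libraries for Nfkbiz (black) and the 5 genes nearest to it. All 6 genes lie below 0 in both LXRdKO libraries and above 0 in the other 4.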

How the data were processed

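The authors deposited raw counts of reads for each gene symbol in a single table, with a column for every library. Quality-filtered reads were aligned to mm10 with STAR, per the labels and the series' design text, and CASAVA, STAR 2.3.0 and HTSeq are named in the submitters' processing notes. The sources used here give no annotation, counting mode or strand setting. The Ovation RNA-seq kit named in the labels' protocols amplifies cDNA, so reads are not independent molecules.

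Groups came from the sample titles. In R 4.3.3, genes were kept with filterByExpr (12923 of 23337), scaled by TMM and fitted with edgeR 4.0.16 (robust quasi-likelihood) over all 6 libraries with 1 mean per genotype. p-values were adjusted by Benjamini-Hochberg and called under 0.05, and the standard error was the log2 fold change divided by the square root of F. The code was tested on simulated counts. Libraries of a group differed by more than sampling noise (chi-square per degree of freedom 4.13 to 11.7).

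The members and lists were chosen with earlier results of these data known. Beside the members, the 6 called genes with the lowest p in each of 2 lists and the 5 genes most like the member of widest range were named. The listed markers Spi1 and Ly6g were not analysed here. Coordinates and lengths are from GENCODE vM21 (GRCm38). The longest protein-coding transcript gave the length, since the longest of Nfkb1 is a single-exon transcript. Alternatives were RLE and upper-quartile scaling, DESeq2 1.42.0, limma-voom (limma 3.58.1), no filter, a filter of 5 CPM in 2 libraries, a fit to the compared groups alone, a block for the replicate number, each library left out in turn, and 2 other lengths, of which the longest transcript of any type was chosen after seeing the data.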

Additional observations from a re-analysis of the deposited data

How the results depend on the processing

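Of 30 differences between genotypes over the 10 members, 14 were called, 10 of these kept direction and call in every alternative run, 4 lost the call in at least 1 (Rela and Relb in Ch25hKO, Rela and Nfkbia in LXRdKO) and 0 changed direction. Members higher in Ch25hKO ranged from 2 to 4 and lower 1 to 1 with each library left out in turn; in LXRdKO higher ranged from 1 to 3 and lower from 1 to 3; between the knockouts they stayed at 2 and 3. The same ranges for the 44 regulators were 3 to 9 and 6 to 13 in Ch25hKO, 6 to 12 and 6 to 10 in LXRdKO, and 4 to 12 and 5 to 11 between the knockouts; for the 34 targets they were 9 to 13 and 11 to 14, 3 to 7 and 15 to 19, and 3 to 10 and 15 to 19. With DESeq2, 5 regulators rose in Ch25hKO and 7 in LXRdKO. Over all genes, 1501 rose without Ch25hKO replicate 1 (2557 with all libraries), and in LXRdKO 1292 and 1314 rose and 1198 and 1265 fell without either LXRdKO library (2116 and 1999); between the knockouts 1585 and 1504 were lower without Ch25hKO replicate 1 and LXRdKO replicate 2 (2406).

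Values near 0 changed sign without being called. In Ch25hKO, Nfkb1 was at -0.0061 with RLE and with DESeq2, -0.011 with a filter of 5 CPM, and from -0.0313 without WT replicate 2 to 0.0332 without WT replicate 1. Nfkbie there was at -1e-04 with RLE and DESeq2, -0.0055 with the filter, -0.0031 without WT replicate 1, -0.0029 without Ch25hKO replicate 2 and at most 0.0236 without Ch25hKO replicate 1, and Nfkbiz ranged from -0.0992 without WT replicate 2 to 0.0601 without WT replicate 1. In LXRdKO, Nfkb2 was at 3e-04 with no filter and from -0.0237 to 0.007 without LXRdKO replicate 1 or LXRdKO replicate 2. Between the knockouts, with each library left out in turn, Rela ranged from -0.0805 to 0.0496 (0.0322 without LXRdKO replicate 1), Relb from -0.0589 to 0.0101 and Nfkbib from -0.0047 to 0.0893. The cause was not tested. No scaling moved the median of all genes by more than 0.02. Relb in LXRdKO also passed with no filter (0.17, edgeR adjusted p = 0.0405), and Bcl3 with upper-quartile scaling (-0.15, edgeR adjusted p = 0.0337) and with the filter of 5 CPM (-0.17, edgeR adjusted p = 0.0150). With that filter, which tests fewer genes, 2 stromal markers rose in Ch25hKO and 1 neutrophil marker fell in LXRdKO, as 1 did with DESeq2.

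Replicate numbers did not pair the libraries: deviations of same-numbered libraries correlated at -0.31 between WT and Ch25hKO, -0.06 between WT and LXRdKO and 0.11 between the knockouts. With the replicate number as a block, 4 members rose and 1 fell in Ch25hKO, 2 and 2 in LXRdKO, and 2 and 3 between the knockouts, and over all genes 2372 rose and 2393 fell in Ch25hKO. A crossed pairing of WT and Ch25hKO, chosen after seeing the data, gave 4 and 1 members, and 2682 and 2638 genes. With 2 libraries a group and at least 41650513 counts in each, the spread between libraries exceeded sampling noise when summed over genes. Its weight against depth was not tested for genes with few counts, such as Map3k14 (319 to 489 counts per library).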
